A study of Mus musculus with 42 samples.

Results

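The genes described are 8 mouse genes for secreted proteins of the seminal vesicle: Svs1, Svs2, Svs3a, Svs3b, Svs4, Svs5, Svs6 and Pate4, also known as Svs7. They were chosen by name. A probe set, the group of array probes read as 1 value, was taken where the platform annotation gave it a single symbol and that symbol was one of these names, which gave 8 probe sets, 1 for each gene, among 19938 genes measured. RNA came from the vas deferens and from caudal epididymis of adult male mice aged 3 to 7 months on a CD1/129 background. The vas deferens was taken from 5 genotypes: wild type (WT), Hoxa9,10,11-/- (AKO), Hoxd9,10,11-/- (DKO), Hoxa9,10,11-/-d9,10,11+/- (AKDH) and Hoxa9,10,11+/-d9,10,11-/- (AHDK). The epididymis was taken from WT and AKO. Each of the 7 groups held 3 arrays that the labels call biological replicates, 21 arrays in all, and no seminal vesicle was among the tissues. The mutations are carried in the germ line, so every cell of a mutant has them, and the study asked how the loss of these Hox genes changes RNA in the reproductive tract.

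Seminal vesicle secretory proteins make up most of the protein in the fluid that the seminal vesicle adds to semen. SVS2 is a main substrate of the copulatory plug and is cross-linked by transglutaminase 4, the product of Tgm4 in the coagulating gland, which is the anterior prostate. Svs3a and Svs3b encode related plug proteins, SVS1 belongs to the copper amine oxidase family and is also found in the plug, and Svs4, Svs5 and Svs6 encode small secreted proteins that evolve fast. Pate4 encodes a small cysteine-rich protein of the PATE family, relatives of Ly6 proteins, that is found on sperm. Seminal vesicle secretion depends on androgens. The seminal vesicle buds from the lower end of the same Wolffian duct that forms the epididymis and the vas deferens.

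In the RefSeq gene table, Svs2, Svs3b, Svs4, Svs3a, Svs6 and Svs5 stand next to one another in that order on chromosome 2, between Wfdc15b and Slpi. Svs1 lies on chromosome 6 beside Doxl2, another amine oxidase gene, and Pate4 on chromosome 9 between Hyls1 and Pate2. The promoter table held 7 of the 8 genes. Of these windows, 5 are shown because the genes form 2 pairs with nearly the same promoter, Svs3a with Svs3b and Svs5 with Svs6, while Svs2 goes with neither, and because correlations over the arrays are given for the same pairs. Each window has 300 bases, 250 before and 50 after the annotated start, printed 5′ to 3′ on the gene's strand from RefSeq, build GRCm38.p6. Capitals mark the letters AGAACA, the core of an androgen receptor element, or the same letters on the other strand, TGTTCT.
Svs3a (chr2:164289017-164289316, plus strand): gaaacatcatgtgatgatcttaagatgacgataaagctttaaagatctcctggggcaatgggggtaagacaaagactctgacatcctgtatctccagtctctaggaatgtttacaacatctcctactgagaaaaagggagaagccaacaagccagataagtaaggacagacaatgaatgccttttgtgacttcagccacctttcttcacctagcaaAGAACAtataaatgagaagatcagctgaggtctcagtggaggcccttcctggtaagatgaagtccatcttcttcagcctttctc
Svs3b (chr2:164256594-164256893, minus strand): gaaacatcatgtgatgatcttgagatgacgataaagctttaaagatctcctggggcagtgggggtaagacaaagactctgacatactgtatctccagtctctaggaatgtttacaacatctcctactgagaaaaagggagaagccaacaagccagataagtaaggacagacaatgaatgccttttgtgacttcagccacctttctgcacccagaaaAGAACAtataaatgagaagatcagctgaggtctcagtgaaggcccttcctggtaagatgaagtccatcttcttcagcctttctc
Svs5 (chr2:164332515-164332814, plus strand): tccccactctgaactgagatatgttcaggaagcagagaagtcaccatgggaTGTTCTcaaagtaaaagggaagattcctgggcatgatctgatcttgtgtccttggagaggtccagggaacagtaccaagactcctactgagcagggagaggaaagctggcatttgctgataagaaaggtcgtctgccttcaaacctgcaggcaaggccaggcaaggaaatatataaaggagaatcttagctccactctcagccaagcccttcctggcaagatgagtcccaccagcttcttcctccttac
Svs6 (chr2:164316501-164316800, plus strand): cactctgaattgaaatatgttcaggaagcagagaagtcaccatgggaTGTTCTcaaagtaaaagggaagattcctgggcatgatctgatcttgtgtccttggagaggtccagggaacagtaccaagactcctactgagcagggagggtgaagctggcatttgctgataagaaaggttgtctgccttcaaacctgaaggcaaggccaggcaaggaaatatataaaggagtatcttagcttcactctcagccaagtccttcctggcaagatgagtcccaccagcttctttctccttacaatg
Svs2 (chr2:164238292-164238591, minus strand): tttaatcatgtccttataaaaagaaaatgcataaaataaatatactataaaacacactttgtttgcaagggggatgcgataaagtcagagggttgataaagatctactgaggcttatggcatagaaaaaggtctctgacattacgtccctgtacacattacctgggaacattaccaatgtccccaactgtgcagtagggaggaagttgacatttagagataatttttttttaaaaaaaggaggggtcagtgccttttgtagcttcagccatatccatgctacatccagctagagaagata
The Svs3a and Svs3b windows were identical at 293 of 300 aligned bases (97.7%), and the Svs5 and Svs6 windows at 285 of 296 (96.3%). The letters AGAACA, on either strand, were found in 5 of the 7 windows (Svs1, Svs3a, Svs3b, Svs5 and Svs6) and in 19.0% of 32851 promoter windows of the same length. In Svs3a and Svs3b these letters began 34 bases before the start and ran directly into the letters TATAAA, the core of a TATA box. In Svs5 and Svs6 the core lay 199 and 203 bases before it. TATAAA on either strand, at any position, was present in 6 of the 7 windows, against 13.6% of all windows. In Svs3a, Svs3b, Svs4, Svs5 and Svs6 a match began 28 to 32 bases before the start. In Svs2 the matches began 236 and 205 bases before it. The letters AGATAA, a site of GATA factors, searched on both strands, were present in 5 of the 7, against 11.2%. A full androgen element, both cores facing each other with 3 bases between, was in none of the 7 and in 0.00913% of all windows. Nearly identical windows are not independent, and a match of letters is not a bound site.

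The deposited values are on a log scale taken as log2, where 1 unit is a 2-fold difference. Each probe set had been set to a median of 0 over the 21 male arrays, so a value says how far an array lies from the middle male array for that gene, and levels of different genes cannot be compared. Hoxa11, one of the mutated genes, was between 0.43 and 1.38 in the vas WT arrays and lower, between -0.37 and -0.63, in the vas AKO arrays. The tissue labels were checked with a list of epididymis epithelium markers (7 of 8 measured). Their mean lay between 1.07 and 1.28 in the WT epididymis and between -2.12 and -1.49 in the vas WT arrays. The list was not used to tell parts of the epididymis apart. In epididymis AKO replicate 1, 7 markers of the proximal epididymis averaged 5.76, against 0.03 and 0.02 in replicates 2 and 3. In vas AKDH replicate 3, sperm markers averaged 0.53, against -1.34 and -1.17 in the other AKDH arrays. In vas WT replicate 3 and vas AKO replicate 3, genes of the prostate and coagulating gland were high, with values given below. No 2 male arrays were identical. The tissue is a mixture of cells, so more cells of a type and more RNA per cell cannot be told apart.

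In the vas deferens of AKO mice, all 8 genes had a higher mean than in WT, and 2 of them, Svs3b and Svs6, rose by the test across all genes. Among all genes 9.35% were called in this comparison (4.91% upward), at an adjusted p below 0.05 from limma with Benjamini-Hochberg adjustment. The median difference was 2.31 over the 8 genes and -0.02 over all genes. The AKO and WT arrays did not overlap for 3 of the 8 genes, Svs3b, Svs4 and Svs6, against 33.1% of all genes.

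Svs3b, a plug protein gene, stood at -0.24, 2.03 and 0.00 in the WT arrays (replicates 1 to 3) and at 3.62, 3.98 and 5.15 in the AKO arrays. Every AKO array was above every WT array, and WT replicate 2 was the WT array nearest to them. The difference was 3.66 on the log2 scale (SE 0.66, 95% interval 2.23 to 5.08, adjusted p = 0.00479). Svs6, a small secreted protein gene, stood at -0.18, 1.65 and 0.36 in WT and at 2.75, 3.17 and 4.56 in AKO. WT replicate 2 was again the highest of the WT arrays, and AKO replicate 3 the highest of the AKO arrays, for both genes. Svs6 differed by 2.88 (SE 0.61, 95% interval 1.55 to 4.22, adjusted p = 0.0119).

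Svs4, also a small secreted protein gene, stood at -0.92, 0.89 and 3.95 in WT and at 4.76, 5.20 and 4.55 in AKO. The AKO arrays lay close together, the WT arrays were spread over several log2 units, and the groups did not overlap. Its difference of 3.53 (SE 1.32, 95% interval 0.66 to 6.40) did not pass the test (adjusted p = 0.124). Without vas WT replicate 3 it was 4.85 (adjusted p = 0.0353).

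Svs2, the plug substrate gene, stood at -1.07, -0.09 and 2.56 in WT and at 2.49, 2.58 and 2.38 in AKO. WT replicate 3 was as high as the AKO arrays and the other WT arrays were low, so the groups overlapped. Svs5 behaved alike, at -2.96, 0.00 and 2.48 in WT and 2.43, 2.63 and 2.27 in AKO. Pate4 stood at -0.78, -1.49 and 1.49 in WT and at 1.61, 1.74 and 1.43 in AKO, so WT replicate 3 lay just inside the AKO range. None of these genes passed the test: Svs2 differed by 2.02 (adjusted p = 0.286), Svs5 by 2.60 (0.43) and Pate4 by 1.86 (0.207). The 95% interval for Svs5 ran from -1.26 to 6.46.

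Svs3a and Svs1 were near 0 in most vas arrays. Svs3a stood at 0.12, 0.37 and 0.00 in WT and at 0.50, 0.16 and 3.12 in AKO. Svs1, the amine oxidase family gene, stood at 0.08, -0.02 and -0.16 in WT and at 0.00, -0.03 and 1.95 in AKO. In both genes AKO replicate 3 alone was far above the rest, and neither difference passed the test (adjusted p = 0.259 and 0.429). Svs3a is a near copy of Svs3b, and whether their probes also bind each other's RNA was not tested. In AKO replicates 1 and 2 Svs3b was at 3.62 and 3.98 and Svs3a at 0.50 and 0.16.

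**Figure D1:**
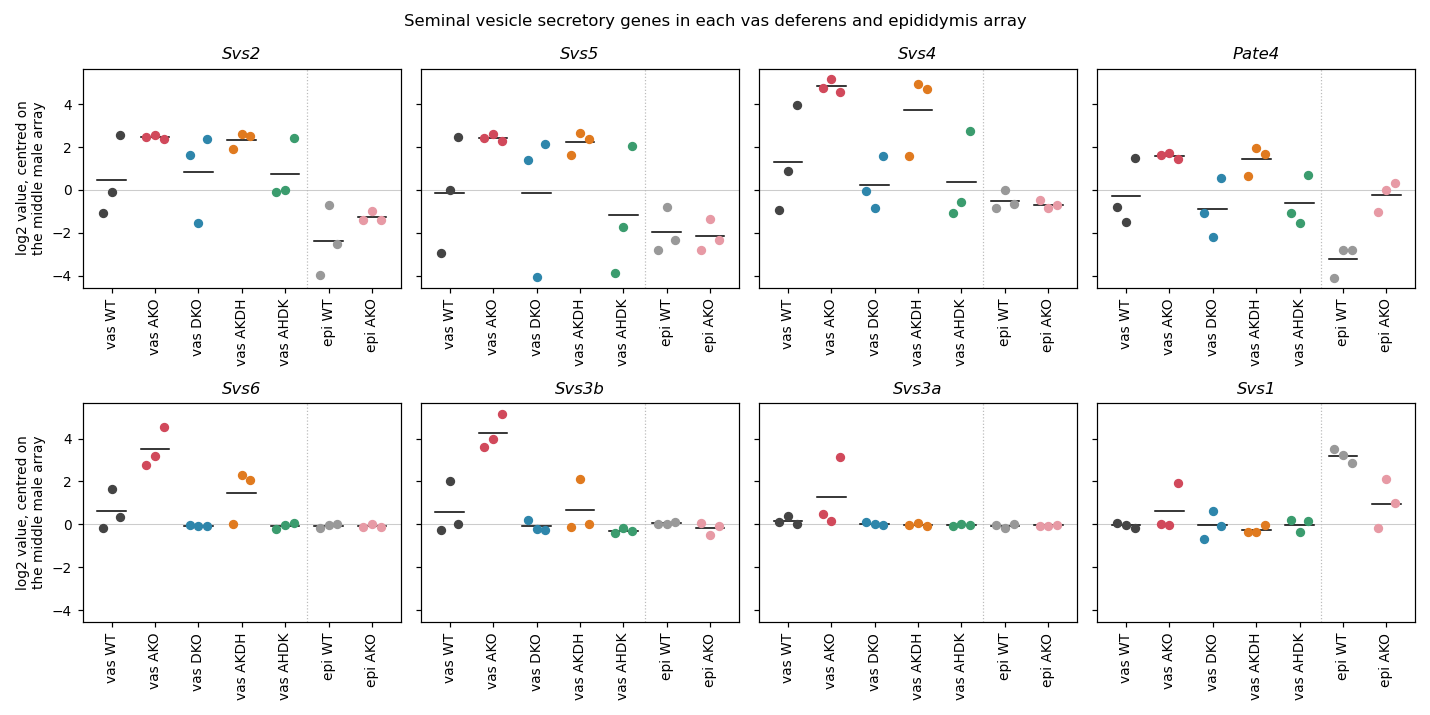
Log2 value of each of the 8 genes in each of 21 male arrays (points, replicates 1 to 3 from left to right, 0 is the middle male array), with the group mean as a bar; epi is epididymis. The vas AKO arrays are high for Svs2, Svs5, Svs4, Pate4, Svs6 and Svs3b. For Svs2, Svs5, Svs4 and Pate4 the vas WT, DKO and AHDK arrays are spread over several log2 units. For Svs6 and Svs3b the DKO and AHDK arrays are all near 0. Svs1 is highest in the WT epididymis.

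Prostate genes were high in 2 of the vas arrays. Pbsn, which encodes probasin, a prostate secretory protein, was 4.62 in vas WT replicate 3 and 2.10 in vas AKO replicate 3. It lay between -0.06 and 0.06 in the other male arrays. Tgm4, the coagulating gland transglutaminase, was 5.32 and 2.25 in the same arrays and between -0.19 and 0.33 in the others. Of 6 prostate markers 5 were measured. Their mean was 2.13 and 0.88 in these arrays and between -0.12 and 0.10 in the other male arrays, with Sbp and Msmb near 0 in all. Pbsn and Tgm4 were named after their values were seen.

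The members split between these arrays. In vas WT replicate 3, Svs2 (2.56), Svs4 (3.95), Svs5 (2.48) and Pate4 (1.49) were at their highest WT value, while Svs3b (0.00), Svs6 (0.36), Svs3a (0.00) and Svs1 (-0.16) were near 0. In vas AKO replicate 3 all 8 were above 1, and Sva, the seminal vesicle antigen gene, was 3.80, against 0.52 and 0.25 in the other AKO arrays and 1.20 in vas WT replicate 2, where Svs3b and Svs6 were also high. Without both arrays, Svs3b differed by 2.91 (adjusted p = 0.0575) and Svs6 by 2.22 (adjusted p = 0.104), and none of the 8 genes was called. Leaving out either of these arrays alone kept both calls.

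**Figure D2:**
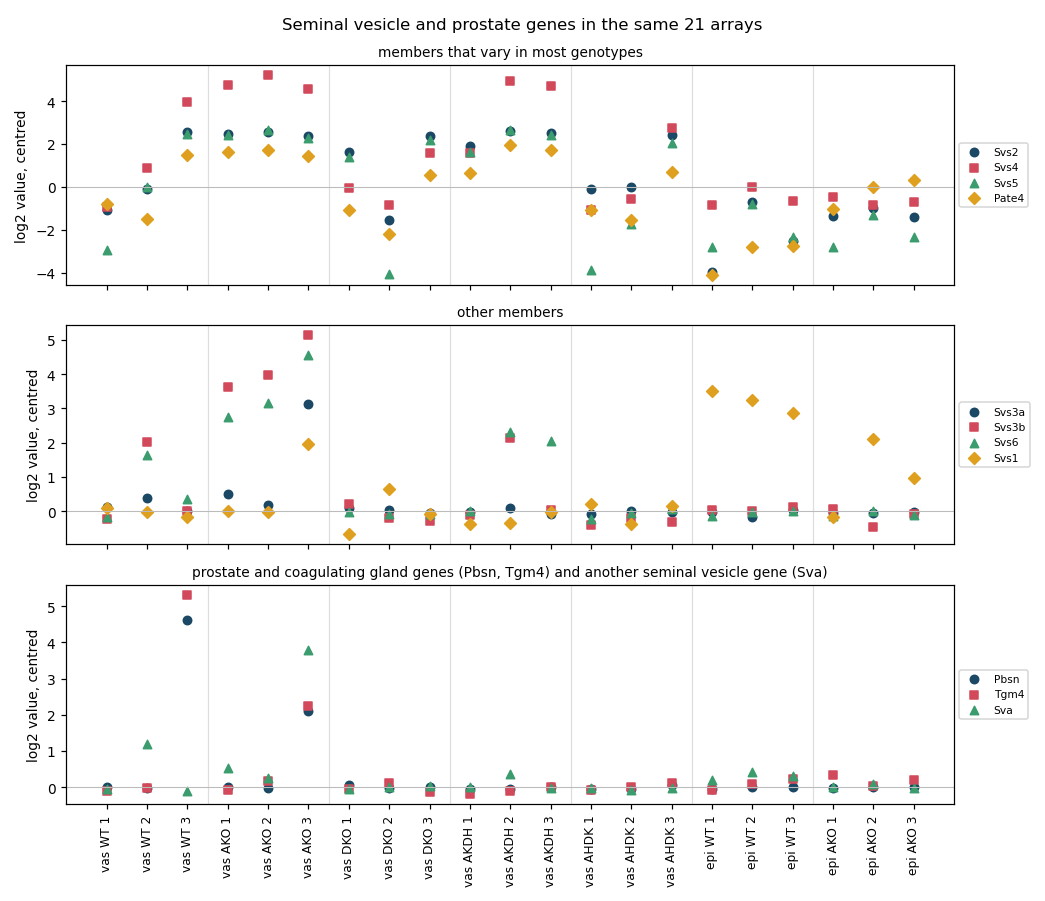
Log2 values in the same 21 male arrays, in the same order in each panel: Svs2, Svs4, Svs5 and Pate4 (top), Svs3a, Svs3b, Svs6 and Svs1 (middle), and Pbsn, Tgm4 and Sva (bottom). Pbsn and Tgm4 stand out in vas WT 3 and vas AKO 3, whereas Svs2, Svs4 and Svs5 are also high in arrays where Pbsn and Tgm4 are near 0, such as vas AKO 1 and 2 and vas AKDH 2 and 3.

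Markers of other cells also differed between the vas AKO and WT arrays, where 9.35% of all genes were called. Of 7 epididymis epithelium markers 4 rose and none fell. Their mean was between -0.13 and 0.31 in AKO and between -2.12 and -1.49 in WT. Of 8 adipocyte markers 5 rose, with means between 0.31 and 1.36 in AKO and between -1.02 and 0.22 in WT. Of 8 smooth muscle markers 2 fell, with means between -0.36 and 0.09 in AKO and between 0.23 and 0.68 in WT. Of 8 sperm markers 2 fell, the protamine genes Prm1 and Prm2, with a list median of -1.48 and means between -1.14 and -0.90 in AKO and between 0.14 and 0.78 in WT. Of 6 vas deferens epithelium markers 1 rose, Slc9a3, and 2 fell, Abcg2 and Pax8, and their means overlapped, between -0.22 and 0.02 in AKO and between -0.20 and 0.27 in WT. The part of these markers in the differences of the seminal vesicle genes was not tested.

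In the AKDH vas deferens, which also lacks Hoxa9, Hoxa10 and Hoxa11 and has a single functional set of Hoxd9, Hoxd10 and Hoxd11, 6 of the 8 genes had a higher mean than WT and none was called, while 24.3% of all genes were. At an unadjusted p below 0.05 the count was also 0 of 8, against 37.9% of all genes. Svs4 stood at 1.57, 4.93 and 4.71, Svs2 at 1.91, 2.59 and 2.53, Svs5 at 1.63, 2.64 and 2.40, and Pate4 at 0.63, 1.93 and 1.70. Replicate 1 was the lowest for each of these. Svs6 stood at 0.01, 2.30 and 2.06, and Svs3b at -0.11, 2.14 and 0.03, so Svs6 was high in replicates 2 and 3 but Svs3b only in replicate 2. The differences from WT were 2.43 for Svs4 (95% interval -0.44 to 5.30, adjusted p = 0.196), 1.68 for Pate4 (-0.14 to 3.50, adjusted p = 0.161) and 0.09 for Svs3b (-1.34 to 1.52, adjusted p = 0.935). Without vas WT replicate 3, the array with high Pbsn, Pate4 differed by 2.56 and passed the test (adjusted p = 0.0388).

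In the DKO vas deferens 1 of the 8 genes had a higher mean than WT, and none was called, against 5.87% of all genes. In the AHDK vas deferens 2 of 8 had a higher mean and none was called, against 4.15%. At an unadjusted p below 0.05 both counts were 0, against 20.7% of all genes in DKO and 17.7% in AHDK. Svs3b stayed between -0.41 and 0.20 and Svs6 between -0.23 and 0.07 in all 6 arrays of these genotypes. Svs5 in contrast ran from -4.05 to 2.16, at 1.40, -4.05 and 2.16 in DKO and at -3.88, -1.74 and 2.06 in AHDK. Svs4 stood at -0.03, -0.86 and 1.59 in DKO and at -1.08, -0.57 and 2.77 in AHDK, and Svs2 at 1.63, -1.55 and 2.37 and at -0.11, 0.00 and 2.40. Replicate 3 was the highest array of both genotypes for Svs2, Svs4, Svs5 and Pate4, and Pbsn was near 0 in both of those arrays. The intervals are wide: for Svs5 the DKO difference was 0.00 with a 95% interval from -3.86 to 3.86, and for Svs3b it was -0.69 with an interval from -2.12 to 0.74.

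**Figure D3:**
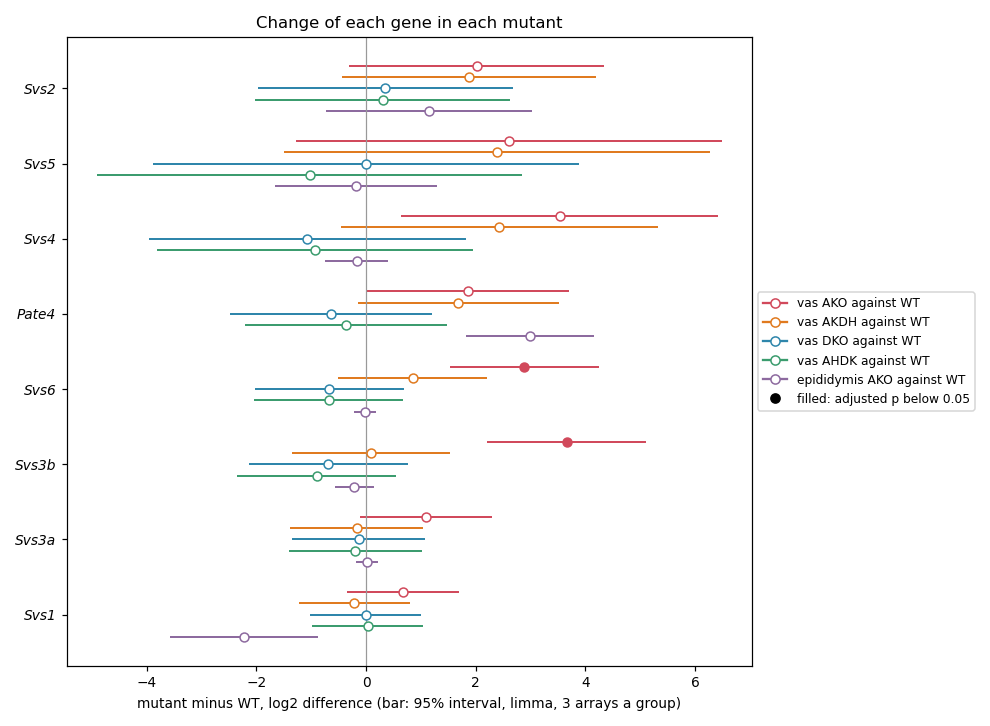
Difference of each mutant from WT of its tissue for the 8 genes (points, log2 scale, bars are 95% intervals from limma, 3 arrays a group); filled points passed an adjusted p below 0.05. The filled points are Svs6 and Svs3b in the AKO vas deferens, and the intervals of Svs5 and Svs4 in the vas deferens are the widest.

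Set directly against AKO, the DKO vas deferens was lower for all 8 genes, and Svs3b, Svs6 and Svs4 fell, while 17.8% of all genes were called (6.37% downward). The differences were -4.34 for Svs3b (SE 0.66, adjusted p = 0.00112), -3.56 for Svs6 (SE 0.61, adjusted p = 0.00242) and -4.60 for Svs4 (SE 1.32, adjusted p = 0.0314). The groups did not overlap for 7 of the 8 genes, all but Svs1, against 42.4% of all genes. Every AKO array of Svs2 and Svs5 was above every DKO array, although the nearest arrays of Svs2 were almost level, and neither gene passed the test (adjusted p = 0.323 and 0.359). The Svs4 call was lost without vas AKO replicate 1, 2 or 3 and without vas DKO replicate 1 or 2 (adjusted p from 0.0731 to 0.107, difference from -4.06 to -4.75). Without vas DKO replicate 3, Pate4 passed as well (-3.24, adjusted p = 0.0299), and without vas AKO replicate 2, Svs3a did (-1.78, adjusted p = 0.0444).

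AKDH against AKO was lower for all 8 genes, and Svs3b fell, with a difference of -3.57 (SE 0.66, adjusted p = 0.0239), where 1.29% of all genes were called. Svs6 differed by -2.04 (adjusted p = 0.145), with every AKDH array below every AKO array, while Svs2, Svs5 and Pate4 differed by -0.14, -0.22 and -0.17. The Svs3b call was lost without vas AKO replicate 1, 2 or 3 or vas AKDH replicate 1 or 3 (adjusted p from 0.0556 to 0.0949, difference from -3.12 to -3.88), and in a fit on these 2 groups alone (adjusted p = 0.189). No member was called in AHDK against DKO (0.366% of all genes) or in AHDK against AKDH (4.05%). At an unadjusted p below 0.05 these counts were 0 and 3, the latter being Svs4, Svs6 and Pate4, all lower in AHDK, against 13.1% and 19.5% of all genes. Without vas AKDH replicate 1, the lowest AKDH array, Svs6 passed in AHDK against AKDH (-2.25, adjusted p = 0.0478).

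Over all vas arrays, as a description, the 6 arrays without Hoxa9, Hoxa10 and Hoxa11 (AKO and AKDH) ran from 1.57 to 5.20 for Svs4, with a median of 4.74. The 9 arrays of the other genotypes ran from -1.08 to 3.95, with a median of -0.03. For Svs4, 5 of the 6 lay above all 9. For Svs6 it was also 5 of 6, for Svs3b and Pate4 4 of 6, for Svs2, Svs5 and Svs3a 2 of 6, and for Svs1 1 of 6. Such counts were not made over all genes, so how common they are was not tested. The highest values of Svs2 lay close together: 8 vas arrays of all 5 genotypes stood above 2, between 2.38 and 2.59, a span of 0.22. Svs5 also had 8 arrays above 2, spanning 0.59, while the 7 such arrays of Svs4 spanned 2.43. Whether Svs2 and Svs5 reached the upper limit of the array was not tested.

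In the epididymis most of the genes were low or flat. None of the 8 was called between AKO and WT, against 0.782% of all genes, and 2, Svs1 and Pate4, did so at an unadjusted p below 0.05, against 16% of all genes. Those were the genes whose AKO and WT arrays did not overlap, against 22.1% of all genes. Pate4 stood at -4.09, -2.82 and -2.78 in WT and at -1.02, 0.00 and 0.31 in AKO, a difference of 2.99 (SE 0.48, 95% interval 1.84 to 4.15, adjusted p = 0.061). Without AKO replicate 1, the array with proximal epididymis markers, it was 3.38 and passed (adjusted p = 0.0343). Svs1 stood at 3.50, 3.24 and 2.86 in WT and at -0.17, 2.10 and 0.97 in AKO. It was highest in the WT arrays and lowest in AKO replicate 1, with a difference of -2.23 (SE 0.55, 95% interval -3.56 to -0.90, adjusted p = 0.133). Svs3a, Svs3b and Svs6 stayed between -0.48 and 0.11 in all 6 epididymis arrays. Sperm markers differed between the same arrays: 4 of 8 fell, with a list median of -3.70, and their means were between 2.01 and 3.16 in WT and between -0.98 and -0.63 in AKO. Of 8 smooth muscle markers 1 fell, with a list median of -1.05 and means between -0.79 and -0.14 in WT and between -1.77 and -1.17 in AKO. The part of these markers in the Svs1 and Pate4 differences was not tested.

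The WT epididymis differed from the WT vas deferens in 3 of the 8 genes, where 28.1% of all genes were called. Svs1 was higher in the epididymis by 3.23 (SE 0.52, adjusted p = 0.000179), and Pate4 lower by a difference of -2.97 (SE 0.78, adjusted p = 0.00838). Svs2 was also called lower, with a difference of -2.87 (SE 1.03, adjusted p = 0.0475), although its arrays overlapped. Arrays with the same replicate number correlated at 0.176 to 0.287 between these tissues, after group means were removed. With the number as a block, in a fit on these groups alone, the Svs2 call was lost (adjusted p = 0.0819). The Svs2 call was also lost without vas WT replicate 2 (adjusted p = 0.0689) or 3 (0.235), or without epididymis WT replicate 1 (0.199) or 3 (0.105), under quantile normalization (0.155) and in a fit on these groups alone (0.13). Without vas WT replicate 3, the array with high Pbsn, the Pate4 difference was -2.09 (adjusted p = 0.0515), which left Svs1 as the single call. Without vas WT replicate 3 and vas AKO replicate 3, the latter entering only the shared spread, the calls were Svs1 and Svs3a (-0.31, adjusted p = 0.0307), and Svs2 (adjusted p = 0.259) and Pate4 (0.0624) were not called.

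In AKO mice 4 of the 8 genes were lower in the epididymis than in the vas deferens, where 15.5% of all genes were called. The differences were -4.42 for Svs3b (SE 0.57, adjusted p = 7.01e-05), -3.57 for Svs6 (SE 0.53, adjusted p = 0.000234), -5.52 for Svs4 (SE 1.15, adjusted p = 0.00353) and -3.73 for Svs2 (SE 1.03, adjusted p = 0.0213). In a fit on these groups alone, Svs5 (-4.61, adjusted p = 0.00183) and Pate4 (-1.83, adjusted p = 0.0205) passed too. Both also passed with the replicate number added to that fit as a block (adjusted p = 0.00667 and 0.0369). The 2 tissues did not overlap for 7 of the 8 genes, all but Svs1, against 37.5% of all genes. The Svs2 call was lost without vas AKO replicate 1, 2 or 3 or epididymis AKO replicate 1 or 3 (adjusted p from 0.0522 to 0.0638). Svs3a, with a difference of -1.31 that was not called (adjusted p = 0.0737), passed without vas AKO replicate 1, 2 or 3 (adjusted p = 0.0409, 0.0143 and 0.032), and its difference without vas AKO replicate 3 was -0.38.

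The change from WT to AKO itself differed between the tissues for 3 genes, by the interaction term over the 21 male arrays, where 7.22% of all genes were called. For Svs3b the epididymis change was lower than the vas change by a difference of -3.87 (SE 0.81, adjusted p = 0.0085), for Svs1 by -2.90 (SE 0.74, adjusted p = 0.0251) and for Svs6 by -2.90 (SE 0.75, adjusted p = 0.0282). Svs3b and Svs6 were higher in AKO in the vas deferens and near 0 in the epididymis, and the mean of Svs1 was lower in AKO in the epididymis. By the same term 2 of 8 sperm markers and 1 of 8 smooth muscle markers were called lower. Of 7 epididymis epithelium markers 1 was called higher and 2 lower, with a list median of -2.36. Of 6 vas deferens epithelium markers 2 were called higher and 1 lower. Their part in the interaction was not tested. With the replicate number as a block Svs3b was called, and Svs1 (adjusted p = 0.0812) and Svs6 (0.052) were not. The Svs1 call was also lost without vas WT replicate 2, vas AKO replicate 3, epididymis WT replicate 1 or 2, or epididymis AKO replicate 1 (adjusted p from 0.0506 to 0.0586), under quantile normalization (0.0546) and in a fit on these groups alone (0.0761). The Svs6 call was lost without vas WT replicate 1 or 3, vas AKO replicate 3, epididymis WT replicate 2, or epididymis AKO replicate 1 or 3 (adjusted p from 0.0513 to 0.0738). Without vas WT replicate 3 and vas AKO replicate 3 together, the arrays with high Pbsn, none was called, and Svs3b differed by -3.13 (adjusted p = 0.0555).

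Ordered by group mean, Svs4 ran from vas AKO (4.84 ± 0.33, SD, n = 3) through vas AKDH (3.74 ± 1.88), vas WT (1.31 ± 2.46), vas AHDK (0.37 ± 2.09), vas DKO (0.23 ± 1.24) and epididymis WT (-0.51 ± 0.45) to epididymis AKO (-0.68 ± 0.19). Every neighbour in that order overlapped the next. Svs2 and Svs5 also overlapped between all neighbours, with vas AKO and vas AKDH first and the 2 epididymis groups last. Svs3b had its only gap below vas AKO (4.25 ± 0.80, SD, n = 3), above vas AKDH (0.69 ± 1.26), and so had Svs6, between 3.49 ± 0.95 and 1.46 ± 1.26. Svs1 had its only gap between epididymis WT (3.20 ± 0.32, SD, n = 3) and epididymis AKO (0.97 ± 1.13). Pate4 had gaps below vas AKDH (1.42 ± 0.69, SD, n = 3) and above epididymis WT (-3.23 ± 0.75), with epididymis AKO, vas WT, vas AHDK and vas DKO between them. Svs3a overlapped between all neighbours.

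Of the 2 promoter pairs, Svs3a went most closely with its partner Svs3b, while Svs3b, Svs5 and Svs6 each went more closely with a gene outside their pair. Correlations here are descriptions over the same 21 male arrays, which share their groups and tissues. Svs3b went most closely with Svs6 (Pearson r = 0.940, Spearman rho = 0.620) and Svs2 with Svs5 (r = 0.899, rho = 0.916), although Svs2 and Svs5 stand at opposite ends of the chromosome 2 run. Svs5 and Svs6, neighbours with windows identical at 96.3% of aligned bases, had r = 0.613 (rho = 0.838). Svs3a and Svs3b, identical at 97.7%, had r = 0.735 (rho = 0.595), the highest of Svs3a with any of the 8 genes, with Svs6 next (r = 0.717, rho = 0.464), and vas AKO replicate 3 is the highest array of both. Over the 15 vas arrays the highest rho of Svs3a was with Svs3b (0.707) and its highest r with Svs1 (0.849). Pate4, on chromosome 9, went with Svs2 (r = 0.862) and Svs4 (r = 0.816). Svs1 ran against Svs2 over the 21 arrays (r = -0.622) and not over the 15 vas arrays (r = -0.069).

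**Figure D4:**
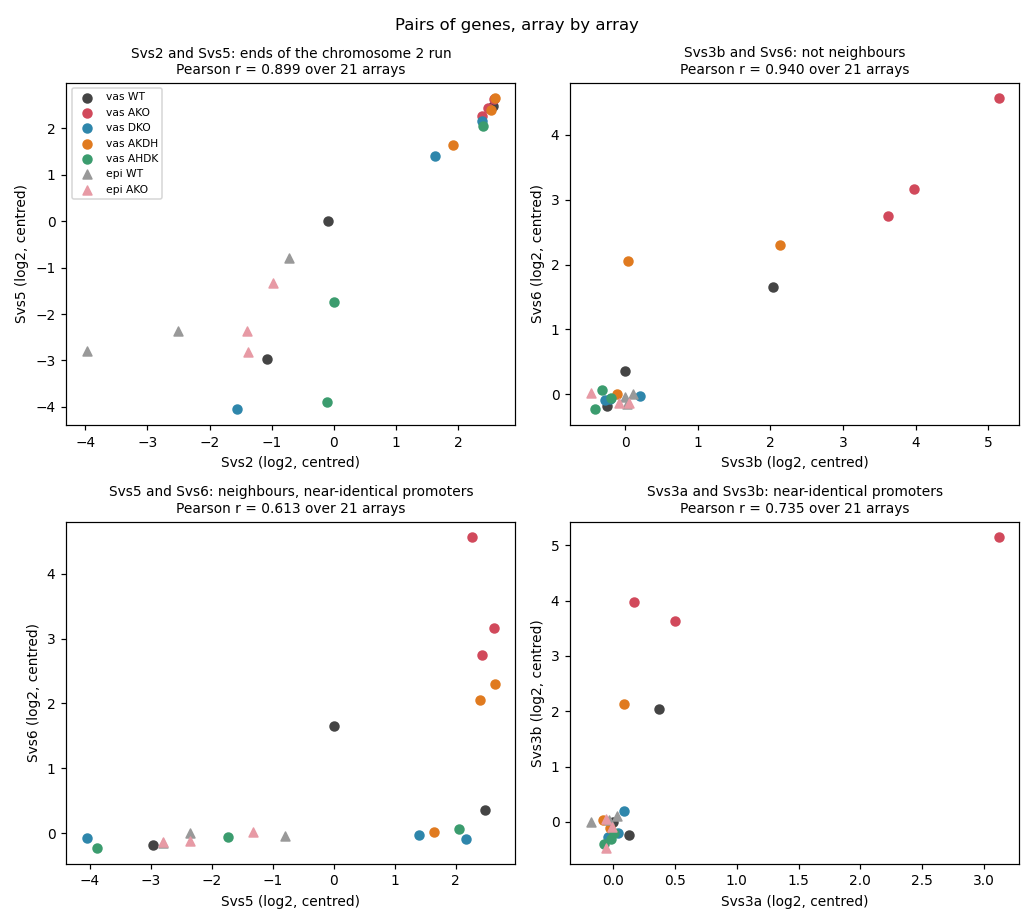
Log2 values of 4 pairs of genes against each other, 1 point for each of 21 male arrays, coloured by group, circles for vas deferens and triangles for epididymis. Svs2 and Svs5 rise together over all arrays, Svs3b and Svs6 are near 0 together and high together apart from 1 AKDH array (Svs3b 0.03, Svs6 2.06), and Svs6 is near 0 in several arrays where Svs5 is above 1.

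Other seminal vesicle genes were taken as a list of 13, of which 11 were measured. In the AKO vas deferens, where 9.35% of all genes were called, 2 rose and none fell, with a list median of 0.74 against -0.02 over all genes. These were Spinkl, a Kazal-type inhibitor gene (2.28, adjusted p = 0.00492), and Ceacam10, which encodes a seminal vesicle secretory glycoprotein (1.27, adjusted p = 0.0432). In AKDH both rose again (2.32 and 1.28, adjusted p = 0.00206 and 0.0217), with Slc2a5, a fructose transporter gene (1.72, adjusted p = 0.0187). The share of all genes called in AKDH was 24.3%. None of the 11 was called in DKO, in AHDK or in the AKO epididymis, against 5.87%, 4.15% and 0.782% of all genes. Spinkl was higher in the WT epididymis than in the WT vas deferens by 2.44 (adjusted p = 0.000107), where Svs3b and Svs6 differed by -0.55 and -0.67 and were not called (adjusted p = 0.55 and 0.41). Of 12 measured prostate and coagulating gland genes 1 rose in the AKO vas deferens, Spink8, by 0.28 (adjusted p = 0.00976), against 9.35% of all genes called.

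The genes around the chromosome 2 run formed a list of 31 Wfdc, Spint and other genes. In the AKO vas deferens 10 of 31 rose and none fell, with a list median of 0.32, against 9.35% of all genes called. They included Eppin, a protease inhibitor gene whose product coats sperm (3.56, adjusted p = 0.000785), Wfdc11 (2.19, adjusted p = 0.000291) and Wfdc8 (2.09, adjusted p = 0.000808). In AKDH 11 rose and 3 fell, in AHDK 3 rose, and in DKO none was called. The shares of all genes called were 24.3% in AKDH, 4.15% in AHDK and 5.87% in DKO. The direct neighbours of the run differed in direction. Wfdc15b, beside Svs2, rose in AKO by 0.74 (adjusted p = 0.00349). Slpi, beside Svs5, was at 0.91, 2.07 and 0.79 in WT and at -0.54, -0.31 and 0.06 in AKO. It was not called in AKO and fell in AKDH by 1.52 (adjusted p = 0.0279). In the epididymis 3 of 31 rose in AKO, against 0.782% of all genes called. These were Spint5 by 4.57 (adjusted p = 0.000822), Spint4 by 5.08 (0.0107) and Wfdc2 by 1.46 (0.0423).

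Of 14 measured genes of the PATE family and the Pate4 region, 5 rose and 1 fell in the AKO vas deferens, against 9.35% of all genes called. Pate1 rose by 2.13 (adjusted p = 0.000276), Pate2, next to Pate4, by 2.50 (adjusted p = 0.00489) and Hyls1, its neighbour on the other side, by 0.97 (adjusted p = 0.00295). In AKDH 5 rose, in AHDK Pate1 rose by 1.61 (adjusted p = 0.00413), and in DKO and in the AKO epididymis none was called. The shares of all genes called were 24.3% in AKDH, 4.15% in AHDK, 5.87% in DKO and 0.782% in the AKO epididymis. Pate2 was higher in the WT epididymis than in the WT vas deferens by 4.64 (adjusted p = 3.05e-07), the opposite direction to Pate4. Of 5 measured amine oxidase genes 1 fell in AKO: Aoc1, near Svs1 on chromosome 6, by 1.21 (adjusted p = 0.0143). It fell in AKDH by 1.78 (adjusted p = 0.000771).

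Among 13 measured androgen-responsive and steroid receptor genes, Fkbp5, an androgen-induced chaperone gene, rose in every vas mutant: by 0.87 in AKO (adjusted p = 0.00291), 0.54 in DKO (0.0483), 1.15 in AKDH (0.00024) and 0.64 in AHDK (0.0292). Tmprss2, an androgen-induced protease gene, fell by 0.86 in AKO (adjusted p = 0.0046) and by 1.00 in AKDH (0.000833). In all, 1 of these 13 rose and 1 fell in AKO, where 9.35% of all genes were called. In AKDH 1 rose and 3 fell, where 24.3% of all genes were called. Of 16 seminal vesicle development genes, 2 rose and 2 fell in AKO, against 9.35% of all genes called. Shh, a signalling factor gene, rose by 0.68 (adjusted p = 0.012). Hoxa13, the neighbour of the mutated genes, fell by 1.01 (adjusted p = 0.00752), as did the mutated Hoxa11. In AKDH 3 of 16 rose and 5 fell, against 24.3% of all genes called.

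The genes most like the mean of the 8 over the 21 male arrays were Pdlim1 (Pearson r = 0.835), Pfkfb3 (0.817), Bhlha15 (0.814), Myoz1 (0.799), Upb1 (0.798), Abca6 (0.784), Shisa4 (0.783), Atp2a1 (0.777), Myh4 (0.776) and Cideb (0.776). By Spearman's rho 3 of these 10 were also among the highest 10. Uncharacterised transcripts, olfactory receptor genes, small RNAs and every gene symbol starting with Rn were passed over in this ranking and those below. Bhlha15, a transcription factor gene of secretory cells, stood at 0.01, 0.01 and 1.03 in vas WT, at 1.38, 2.36 and 0.68 in vas AKO and at -0.14, 2.62 and 1.77 in vas AKDH. Myoz1, Atp2a1 and Myh4 are skeletal muscle genes, and the mean of 6 skeletal muscle markers was highest in vas AKDH replicate 2 (2.19), vas AKO replicate 3 (1.72) and vas WT replicate 3 (1.46). Over the 15 vas arrays the highest were Cox7a2l (0.891), Ninl (0.891), Wipf3 (0.861), Gabrp (0.861) and Ypel3 (0.859). Svs1 was most like Cyp2c39 (r = 0.908), Dnah11 (0.896) and Shisa6 (0.886) over the 21 arrays. Cyp2c39, a cytochrome P450 gene, stood at 5.11, 4.30 and 4.67 in the WT epididymis, at 0.34, 3.05 and 1.19 in the AKO epididymis and below 0.75 in every vas array. Pate4 was most like Krt18, an epithelial keratin gene (0.865), Pfkfb3 (0.863) and Tfap2c (0.847).

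Most of these genes had a large spread across the male arrays. Over the 21 male arrays the SD was 2.48 for Svs5, 2.39 for Svs4, 2.03 for Svs2, 1.75 for Pate4, 1.65 for Svs3b, 1.40 for Svs6, 1.28 for Svs1 and 0.69 for Svs3a. That places Svs5 at rank 5 and Svs4 at rank 10 of 19938 genes, and Svs3a at rank 1022. Over the 21 female arrays of uterus and oviduct, centred on their own, the SDs lay between 0.04 and 0.20, and each of the 8 stayed between -0.33 and 0.48.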

How the data were processed

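Fresh tissue was hybridised to Affymetrix arrays as biotin-labelled cDNA fragments made from total RNA, per the labels' protocols. The deposited values are logs, taken as log2, and each of 28856 probe sets had a median of exactly 0 over the 21 male arrays. Absolute signal is lost, so no dim probes were filtered and the sexes were not compared. The log base (the scale), summarisation, normalisation and genome build are not given in the sources analysed, and a higher value was read as more RNA. Male array medians lay between -0.05 and 0.03. The number of arrays limits the precision.

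Of the probe sets 21789 had 1 symbol, 1621 several and 5446 none, and averaging by gene gave 19938 genes. For the 12 comparisons lmFit and eBayes of limma 3.58.1 (R 4.3.3) were run on the 15 vas arrays, the 6 epididymis arrays, or all 21 male arrays for tissues and the interaction. Benjamini-Hochberg adjustment covered all genes, with calls below 0.05. The labels do not say which samples share a litter or day. Each p-value sets a difference against the spread of these arrays within their groups, moderated over all genes. The scripts were tested on simulated data, and promoters were aligned with Biopython 1.88.

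After group means were removed, arrays of the same replicate number correlated above 0.1 in every pair between WT vas and WT epididymis (0.176 to 0.287) and between AKO vas and AKO epididymis (0.141 to 0.190). The number, taken from the titles, was used there as a block, in fits on the compared groups alone. Between vas WT and vas AHDK, which are different genotypes, the same-number values ran from -0.146 to 0.334. Arrays of different numbers were not compared, so whether same-number arrays share an animal was not tested.

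The members, the gene lists and the marker lists were chosen with earlier results of these data known. Genes named were all members, those most like them by Pearson r (10 over the male arrays and 5 over the vas arrays for the mean of the 8, and 3 each for Svs1 and Pate4), and, for each mutant set against WT, up to 3 genes a list by smallest adjusted p. Hoxa11, Pbsn, Tgm4, Sva, Wfdc15b and Slpi were added after their values were seen. The alternatives were quantile normalization, single probe sets, robust eBayes, the compared groups alone, the more variable genes, the replicate block and each array left out. Leaving out the arrays that stood apart, or those with prostate markers, was chosen after seeing the data.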

Additional observations from a re-analysis of the deposited data

Results flagged for a closer look

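The effect of AKO against WT differed between the epididymis and the vas deferens for 3 of the 8 genes, by the interaction term of limma over 19938 genes, where 7.22% of all genes were called. The difference of the effects, epididymis minus vas deferens, was -3.87 for Svs3b (adjusted p = 0.0085), -2.90 for Svs1 (adjusted p = 0.0251) and -2.90 for Svs6 (adjusted p = 0.0282). In the vas deferens AKO minus WT was 3.66 for Svs3b and 2.88 for Svs6, and in the epididymis it was -0.22 and -0.02. For Svs1 it was 0.67 in the vas deferens, with 1 high AKO array, and -2.23 in the epididymis. The calls of Svs1 and Svs6 were lost with the replicate number as a block, and all 3 without the arrays with prostate markers. With each array left out in turn, between 1 and 3 of the 8 were called. Dixon's test of a single outlying array was not applied to groups of 3.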

How the results depend on the processing

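No difference that was called changed its direction under any alternative run. The 1385 alternative values cover the 8 genes in 12 comparisons and the Spearman check of the genes most like the members. Of these values 1233 kept their sign and their side of the threshold, 51 lost a call and 28 gained one. The other 73 were the Spearman check, which shared few genes, and differences that were not called and changed sign. Without the 2 vas arrays with prostate markers the calls went from 2 to 0 in vas AKO against WT, from 1 to 0 in vas AKDH against AKO and from 3 to 0 in the interaction. In WT epididymis against vas it replaced the calls of Svs2 and Pate4 with one of Svs3a, and in AKO epididymis against vas it added Svs3a. In vas AKDH against AKO the call of Svs3b was joined by Svs6 under quantile normalization (2), and there were 0 calls with only the compared groups in the fit or without the 2 arrays that stood apart. In epididymis AKO against WT the count went from 0 to 1, each time Pate4, under quantile normalization, with only the genes of larger spread tested, with the replicate block and without the arrays that stood apart. The replicate block left 1 of 3 calls in the interaction, Svs3b. In other comparisons the same-number arrays did not all correlate above 0.1. There the block added Svs4 in vas AKO against WT (adjusted p = 0.0467) and Pate4 in vas DKO against AKO (0.0238). It also added Pate4 in epididymis AKO against WT (0.037). Leaving out each replicate in turn, the count ran from 2 to 3 in vas AKO against WT, 0 to 0 in DKO against WT and in AHDK against WT, 0 to 1 in AKDH against WT, 2 to 4 in DKO against AKO, 0 to 1 in AKDH against AKO, 0 to 0 in AHDK against DKO, 0 to 1 in AHDK against AKDH, 0 to 1 in epididymis AKO against WT, 1 to 3 in WT epididymis against vas, 3 to 4 in AKO epididymis against vas and 1 to 3 in the interaction. The cause of these moves was not tested. Signal over background is unknown after centring.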
